A study of Mus musculus with 6 samples.

Results

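Neuronal microtubule proteins were followed through 10 genes, Tubb3, Map2, Mapt, Dcx, Dclk1, Map1a, Map1b, Stmn1, Stmn2 and Stmn3, which were chosen by name for what their products do. Earlier results of these data were known when these genes were chosen. Each was represented by its brightest probe set over all 6 arrays, and the 10 were part of 19938 genes measured. The cells were W4 mouse embryonic stem cells, a single line, kept for 16 days on coated plates in a serum-free medium with B27, N2 and bFGF that drives them towards neurons. In 1 group, of 3 arrays, 300 uM valproate (VPA) was present throughout. VPA is an antiepileptic drug that inhibits histone deacetylases and is known to disturb the development of the nervous system; the labels call the dose sub-toxic. The other group, also of 3 arrays, received the solvent PBS in the same medium. The series describes the arrays of a group as biological replicates. The labels name no sorting of cells, so each array reports a whole culture.

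Microtubules are hollow polymers of alpha- and beta-tubulin that grow and shrink at their ends. Neurons use them as the scaffold of axons and dendrites and as tracks for transport. Tubulin isotypes form the wall, structural microtubule-associated proteins (MAPs) such as tau and MAP2 bind along it and stabilize it, and doublecortin proteins bind between protofilaments in migrating neurons. Stathmins do the opposite: they bind free tubulin dimers and promote shrinkage.

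The values are normalized log2 signals, so a difference of 1 is a 2-fold difference, and each change is relative to the other genes on the array. Array medians lay between 6.99 and 7.03. VPA replicate 1 stood apart from the other VPA arrays. Over all genes its median absolute difference from them was 0.12 and 0.13, against 0.07 between VPA replicates 2 and 3 and 0.06 to 0.07 between PBS arrays. The 95th percentile of 1027 olfactory receptor genes, 6.15, served as a gauge of background, since these genes are mostly silent outside the nose. All 10 microtubule genes lay above it in both groups. By the mean over all 6 arrays, 0 of 20 other pan-neuronal genes and 6 of 6 pluripotency genes lay below it.

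With VPA, 8 of the 10 genes were lower and 0 were higher at an adjusted p under 0.05 (limma), where 15.7% of all genes were lower and 13.6% were higher. The falls were modest. The largest were those of Dclk1, a doublecortin-like kinase, and of Mapt, which encodes tau. Dclk1 fell by 31.7% (95% interval -37.3% to -25.7%) and Mapt fell by 30.7% (-38.8% to -21.6%). Tubb3, Map2, Dcx and the 3 stathmin genes fell less, and among them Map2 fell by 13.0% and Dcx fell by 22.5%. Map1a and Map1b, the genes of the large MAP1 proteins, were not called, and in both the groups overlapped. For the other 8 genes all 3 VPA arrays lay below all 3 PBS arrays, which held for 23.8% of all genes. The median change of the 10 genes was -0.28, beside 0.0013 for all genes. The arrays hold RNA of whole cultures, so fewer neurons and less of these RNAs per neuron cannot be told apart.

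**Figure D1:**
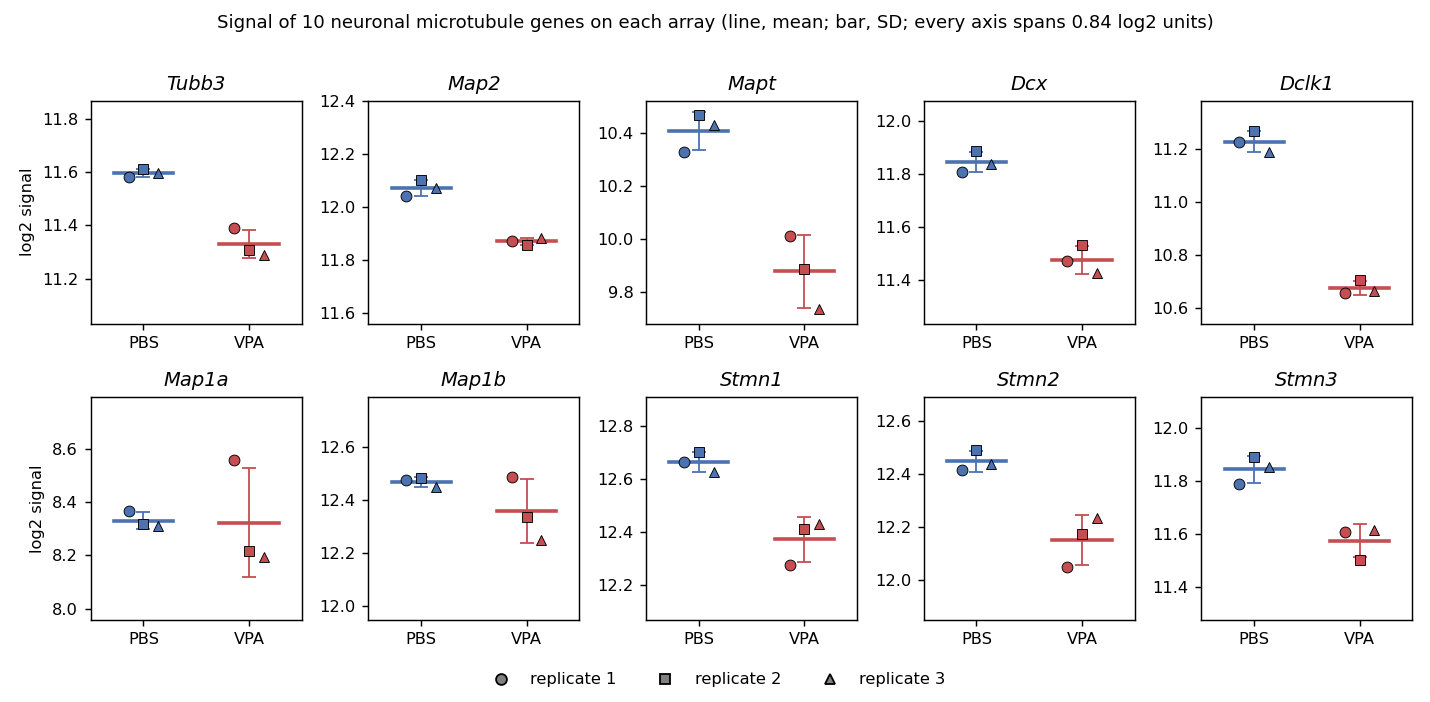
Log2 signal (vertical axis) of each of the 10 genes on the 3 PBS arrays and the 3 VPA arrays; symbols mark the replicate, horizontal lines the mean and bars the SD (n = 3). The groups are separate in 8 panels, whereas VPA replicate 1 lies above all PBS arrays for Map1a and Map1b.

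The upstream sequences of 5 of the genes are shown because members that fell and a member that was not called, Map1b, can be compared in them. RefSeq's promoter table (GRCm38.p6) held 9 windows for 7 of the 10 genes, and the 250 bases before the first listed start are printed 5′ to 3′. Capitals mark matches, on either strand, to GGGCGG (known as the GC box), to TATAAA (known as the TATA box), to the motif CCAAT, to the E-box motif CANNTG or to the cyclic AMP response element TGACGTCA. None of the marked matches in these 5 windows overlap.
Tubb3, chr8:123411303-123411552, plus strand: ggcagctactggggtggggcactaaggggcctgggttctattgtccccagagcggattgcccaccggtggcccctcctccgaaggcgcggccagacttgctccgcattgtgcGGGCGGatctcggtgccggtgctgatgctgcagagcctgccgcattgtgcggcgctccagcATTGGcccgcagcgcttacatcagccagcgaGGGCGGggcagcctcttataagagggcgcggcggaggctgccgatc
Map2, chr1:66175079-66175328, plus strand: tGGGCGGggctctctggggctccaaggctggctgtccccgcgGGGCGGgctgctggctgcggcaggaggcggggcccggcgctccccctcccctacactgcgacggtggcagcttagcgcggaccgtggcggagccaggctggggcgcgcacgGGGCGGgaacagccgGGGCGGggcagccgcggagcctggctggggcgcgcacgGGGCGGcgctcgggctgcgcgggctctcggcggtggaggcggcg
Dclk1, chr3:55242114-55242363, plus strand: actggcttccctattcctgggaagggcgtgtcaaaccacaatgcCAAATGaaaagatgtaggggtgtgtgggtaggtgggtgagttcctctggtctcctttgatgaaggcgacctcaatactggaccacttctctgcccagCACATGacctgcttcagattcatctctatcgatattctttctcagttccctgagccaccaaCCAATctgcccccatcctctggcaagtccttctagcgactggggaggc
Dcx, chrX:143933220-143933469, minus strand: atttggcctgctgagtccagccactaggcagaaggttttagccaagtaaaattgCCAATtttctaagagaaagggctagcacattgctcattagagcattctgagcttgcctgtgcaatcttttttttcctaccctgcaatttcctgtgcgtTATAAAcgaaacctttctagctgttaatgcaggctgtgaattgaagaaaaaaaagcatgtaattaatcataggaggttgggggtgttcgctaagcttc
Map1b, chr13:99516603-99516852, minus strand: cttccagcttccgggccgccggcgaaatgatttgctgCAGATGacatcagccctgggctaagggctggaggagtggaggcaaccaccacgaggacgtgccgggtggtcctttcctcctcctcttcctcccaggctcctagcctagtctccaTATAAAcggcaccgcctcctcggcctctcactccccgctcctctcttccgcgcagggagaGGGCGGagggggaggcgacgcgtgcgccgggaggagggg

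These windows differed in base composition. Map2 had 34 CpG dinucleotides and a GC content of 81.2%, Tubb3 21 and 68%, and Map1b 19 and 66.4%, whereas Dclk1 had 4 and 52.4% at this start and Dcx 3 and 41.6%. Over all 32851 windows the medians were 6 CpGs and 52.4%. A GC box was found 5 times before Map2, 2 times before Tubb3 and 1 time before Map1b, and 32.7% of all windows held at least 1. Dcx and Map1b held the TATA box letters, as 12.4% of windows did. CCAAT was present before Tubb3, Dclk1 and Dcx (33.9% of windows), and an E-box before Dclk1 and Map1b (66.2%). Dclk1 and Dcx each had a second listed start, not printed, whose window held 0 CCAAT. The window of Map1a, the other member that was not called, held 4 GC boxes, 21 CpGs, 1 CCAAT, 2 E-boxes and 0 TATA boxes. TGACGTCA was in none of the 5 (1.55%). Both CpG-rich and CpG-poor windows thus stood before genes that fell, and a match says only that the letters are there.

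Tubb3 encodes a beta-tubulin made almost only in neurons and widely used to mark them (probe set 10576332). Its signal was 11.58, 11.61 and 11.60 on the PBS arrays and 11.39, 11.31 and 11.29 on the VPA arrays. The spread within PBS was narrow, and VPA replicate 1 was the highest of its group yet still below every PBS array. The gene fell by 0.27 on the log2 scale (SE 0.06, adjusted p = 0.00672). The call held without any 1 array, with changes from -0.30 to -0.25.

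Of 16 other tubulin subunit genes 3 rose and 3 fell, with a median change of -0.10, where 13.6% of all genes were higher and 15.7% lower. Leaving out 1 array gave from 2 to 5 falls, with 5 when VPA replicate 1 was omitted and 2 when PBS replicate 2 or 3 was. Tubb6, a beta-tubulin that is widespread outside the nervous system, rose by 0.61 (SE 0.13, adjusted p = 0.0076), and its VPA values of 9.29, 8.75 and 9.08 lay above PBS values of 8.31, 8.60 and 8.38. Tuba4a and the delta-tubulin gene Tubd1 rose by 0.31 (SE 0.06) and 0.37 (SE 0.07). The gamma-tubulin gene Tubg2 fell by 0.43 (SE 0.07). The other members that fell were the brain-rich beta-tubulins Tubb2a and Tubb2b, named after their values were seen, at -0.29 (SE 0.07) and -0.24 (SE 0.05). Sequences of tubulin genes are alike, so probe sets of related isotypes may share signal. Tuba1a, the main alpha-tubulin of young neurons, differed by -0.13 (SE 0.05) and was not called (adjusted p = 0.0877). Its 3 VPA arrays all lay below its 3 PBS arrays, which held for 23.8% of all genes. This gene too was named after its values were seen.

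The MAP2 and tau proteins share a microtubule-binding region. MAP2 lies mainly in dendrites and cell bodies, and tau mainly in axons. Map2 (probe set 10347036) read 12.04, 12.10 and 12.07 with PBS and 11.87, 11.86 and 11.88 with VPA. Its arrays agreed closely within each group, and it had the smallest fall among the 8 genes that passed, at 0.20 (SE 0.05, adjusted p = 0.0198). The call was lost without PBS replicate 1 (adjusted p = 0.0501), PBS replicate 2 (0.0935), PBS replicate 3 (0.0716) or VPA replicate 2 (0.0613), with changes from -0.22 to -0.19 when any 1 array was left out.

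Mapt (probe set 10381776) read 10.33, 10.47 and 10.43 with PBS and 10.01, 9.89 and 9.74 with VPA. The VPA arrays were spread over 0.28, the PBS arrays over 0.14, and the gap between the groups was 0.32. The gene fell by 0.53 (SE 0.08, adjusted p = 0.00115). Leaving out any 1 array gave changes from -0.60 to -0.46, all of them called.

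Mapt fell further than Map2 on each VPA array. The within-array difference, Map2 minus Mapt, stood 0.20, 0.31 and 0.48 above its PBS mean on VPA replicates 1, 2 and 3, an unequal change of 0.33. All 3 VPA arrays lay above all 3 PBS arrays, but a two-sided exact permutation test of 3 against 3 arrays cannot go below p = 0.1, the value found here (adjusted p = 0.3 over 6 pairs of related genes).

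Doublecortin (Dcx) and its relative Dclk1 bind microtubules in migrating and growing neurons, and Dcx is a common marker of young neurons. Dcx (probe set 10607156) read 11.81, 11.89 and 11.84 with PBS and 11.47, 11.53 and 11.43 with VPA. The groups were apart by 0.28 and VPA replicate 1 lay between the other VPA arrays. Dcx fell by 0.37 (SE 0.06, adjusted p = 0.00143).

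Dclk1 (probe set 10492136) read 11.23, 11.27 and 11.19 with PBS and 10.66, 10.71 and 10.67 with VPA. The gap between the groups, 0.48, was the widest among the 10 genes and several times the range within either group, 0.08 and 0.05. Dclk1 fell by 0.55 (SE 0.05, adjusted p = 0.000118). Its transcripts include long forms with the doublecortin domains and short forms with the kinase, and with 1 probe set for the gene they were not told apart here.

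The within-array difference Dcx minus Dclk1 stood 0.20, 0.21 and 0.14 above its PBS mean on the VPA arrays. The unequal change was 0.18 (exact permutation p = 0.1, the smallest possible; adjusted p = 0.3), with every VPA array above every PBS array. Leaving out any 1 array gave values from 0.17 to 0.20.

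MAP1A and MAP1B are large proteins that are cut into heavy and light chains. MAP1B is abundant in growing axons, and MAP1A in mature dendrites. Map1a (probe set 10475314) read 8.37, 8.32 and 8.31 with PBS and 8.56, 8.22 and 8.19 with VPA. VPA replicate 1 was the highest of all 6 arrays, and the other VPA arrays were the lowest. The change of -0.01 (95% interval -0.22 to 0.21, adjusted p = 0.962) thus averages over VPA arrays that lay on both sides of PBS. Without VPA replicate 1 it was -0.13 (adjusted p = 0.074), it was 0.01, 0.05 and 0.06 without PBS replicate 1, VPA replicate 2 and VPA replicate 3, and after quantile normalization it was 0.025, so it had no stable sign.

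Map1b (probe set 10411519) read 12.48, 12.48 and 12.45 with PBS and 12.49, 12.34 and 12.25 with VPA. Here too VPA replicate 1 was highest and the other VPA arrays lay below all PBS arrays. The change was -0.11 (95% interval -0.27 to 0.05, adjusted p = 0.275), and -0.06 without VPA replicate 3. Without VPA replicate 1 it was -0.18 and passed (adjusted p = 0.027). The within-array difference Map1a minus Map1b stood 0.21, 0.02 and 0.08 above its PBS mean on the VPA arrays, with overlapping groups (unequal change 0.10, exact permutation p = 0.2, adjusted p = 0.4).

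**Figure D2:**
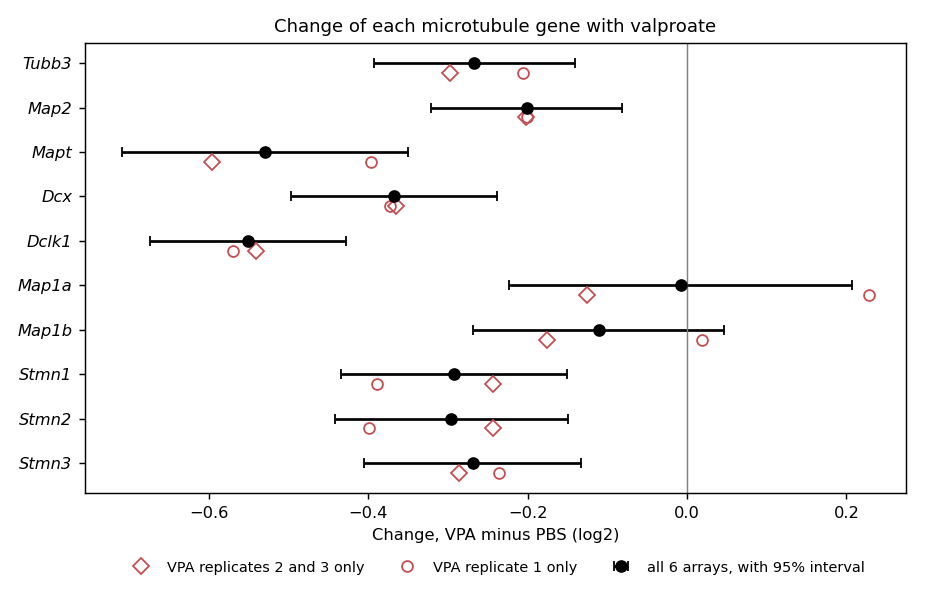
Change of each gene, VPA minus PBS, on the log2 scale (horizontal axis): black points and bars give all 6 arrays with the 95% interval of the limma fit, and open red symbols give VPA replicate 1 alone and VPA replicates 2 and 3 alone against the PBS mean. Intervals reach across 0 for Map1a and Map1b, where VPA replicate 1 lay at 0.23 and 0.02.

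Stathmin (Stmn1) is abundant in neural progenitors, dividing cells and young neurons. Stmn2 and Stmn3 are neuronal relatives that are anchored to membranes and found in growth cones. Stmn1 (probe set 10508986) read 12.66, 12.70 and 12.62 with PBS and 12.27, 12.41 and 12.43 with VPA. Its lowest value came from VPA replicate 1, and the groups were apart by 0.19. It fell by 0.29 (SE 0.06, adjusted p = 0.00771). A second probe set annotated to Stmn1 alone differed from the first by at most 0.0032 on any array, so it adds no independent reading.

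Stmn2 (probe set 10490818) read 12.41, 12.49 and 12.44 with PBS and 12.05, 12.17 and 12.23 with VPA. VPA replicate 1 was again the lowest, and the gene fell by 0.30 (SE 0.06, adjusted p = 0.00849).

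Stmn3 (probe set 10490665) read 11.79, 11.89 and 11.85 with PBS and 11.61, 11.50 and 11.61 with VPA, where VPA replicate 2 was the lowest. It fell by 0.27 (SE 0.06, adjusted p = 0.00945). With PBS replicate 2 left out it no longer passed (change -0.25, adjusted p = 0.0519). A second Stmn3 probe set, 10490663, had means of 5.75 and 5.54, both below the background gauge.

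The 3 stathmin genes had changes close to each other. Unequal changes were 0.0036 for Stmn1 minus Stmn2, -0.02 for Stmn1 minus Stmn3 and -0.03 for Stmn2 minus Stmn3, with exact permutation p-values of 1, 0.9 and 0.9 (adjusted p = 1 for each). On VPA replicate 1 the differences Stmn1 minus Stmn3 and Stmn2 minus Stmn3 lay 0.15 and 0.16 below their PBS means, against at most 0.09 above on the other VPA arrays. The 3-array groups cannot show that the genes changed alike. Stmn1 minus Stmn2 differed from its PBS mean by 0.02 or less on each VPA array.

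**Figure D3:**
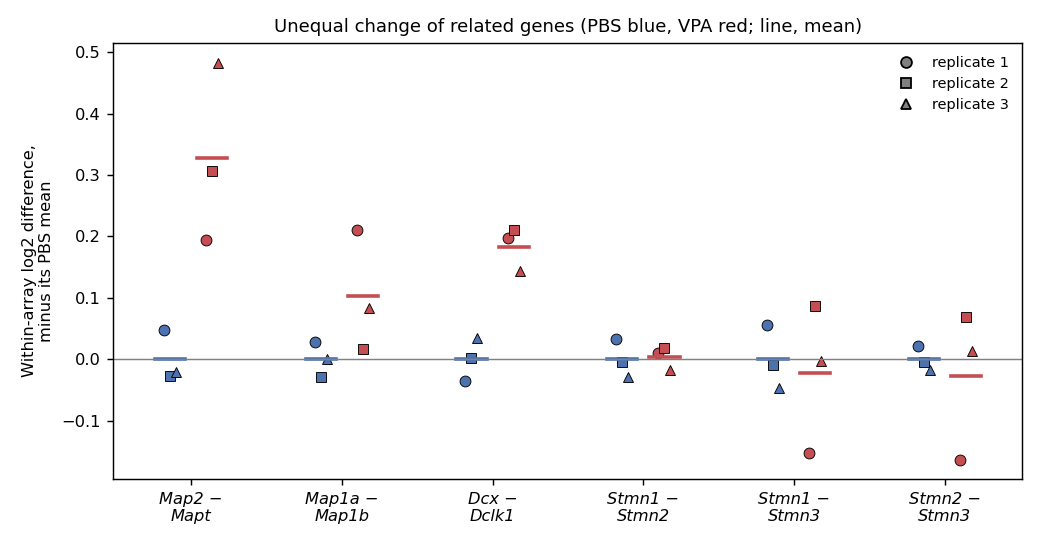
Within-array log2 difference of related genes, set to 0 at its PBS mean (vertical axis), for 6 pairs; blue symbols are PBS arrays, red symbols VPA arrays, and lines are means (n = 3). VPA arrays lie apart from PBS arrays for Map2 minus Mapt and for Dcx minus Dclk1, whose unequal changes were 0.33 and 0.18.

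The VPA arrays did not order the genes in 1 way. Set against the average of VPA replicates 2 and 3, VPA replicate 1 was higher by 0.35 for Map1a, 0.20 for Mapt, 0.19 for Map1b and 0.09 for Tubb3. For Stmn1 and Stmn2 it differed from that average by -0.15 and -0.16, and for Map2, Dcx and Dclk1 by 0.0003, -0.01 and -0.03. With VPA replicates 2 and 3 alone, all 10 genes had means below PBS, from -0.60 for Mapt to -0.13 for Map1a.

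Other structural MAPs moved in both directions. Of 17 measured, 6 fell and 3 rose, with a median of -0.08, where 15.7% of all genes were lower and 13.6% higher. Stmn4, the remaining stathmin gene, fell by 0.62 (SE 0.07, adjusted p = 0.000169), from 10.43, 10.63 and 10.54 to 9.94, 9.92 and 9.87. Map9, whose product binds spindle and ciliary microtubules, fell by 0.61 (SE 0.07), and Tppp, a tubulin polymerization gene best known from oligodendrocytes, fell by 0.44 (SE 0.07). Map7d3 rose by 0.59 (SE 0.08). The doublecortin relatives Dclk2 and Dclk3, named after their values were seen, changed by -0.37 (SE 0.06) and 0.36 (SE 0.07). Of 5 genes of collapsin response mediator proteins, which bind tubulin dimers in growing axons, 3 fell and 0 rose (median -0.16). These were Dpysl5 at -0.39 (SE 0.07), Dpysl3 at -0.27 (SE 0.05) and Dpysl2 at -0.16 (SE 0.05, adjusted p = 0.0479).

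Of 20 genes of proteins that hold microtubule ends or link them to other structures 6 fell and 1 rose, with a median of -0.16. Beside this, 15.7% of all genes were lower and 13.6% higher. Leaving out 1 array gave from 4 to 10 falls, with 10 in the absence of VPA replicate 1 and 4 in that of PBS replicate 2 or 3. The plus-end genes Clip1 and Clasp2 fell by 0.44 (SE 0.06) and 0.42 (SE 0.06), the minus-end gene Camsap3 by 0.39 (SE 0.08), and the actin-microtubule linker gene Macf1 by 0.37 (SE 0.06). Dst, the relative of Macf1, rose by 0.23 (SE 0.06, adjusted p = 0.0192), and was named after its values were seen. That call was lost without PBS replicate 1, 2 or 3, where 0 genes of the group rose.

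Among 24 genes of tubulin folding, modification and severing 8 fell and 3 rose, with a median of -0.08. The shares over all genes were 15.7% lower and 13.6% higher. Without PBS replicate 1, 2 or 3 the falls numbered 4, 5 and 5. Atat1, which encodes the tubulin acetyltransferase, fell by 0.55 (SE 0.09, adjusted p = 0.00179), and Agtpbp1, which encodes a deglutamylase, fell by 0.48 (SE 0.06, adjusted p = 0.00028). Fignl1 and Fign, of the fidgetin family of AAA proteins, rose by 1.04 (SE 0.09) and 0.59 (SE 0.11). Fignl1 went from 6.94 ± 0.13 to 7.98 ± 0.13 (SD, n = 3), with no overlap.

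Of 16 genes of kinases and phosphatases that act on tau and other MAPs 5 fell and 0 rose (median -0.07, and -0.15 without VPA replicate 1). Both this count and that of the next group stand beside 15.7% of all genes lower and 13.6% higher. Cdk5r1, which encodes the p35 activator of the kinase CDK5, fell by 0.63 (SE 0.06, adjusted p = 9.5e-05). Mapk10, the neuronal JNK gene, fell by 0.41 (SE 0.05), Mark1, which encodes a kinase that phosphorylates MAPs, by 0.35 (SE 0.07), and the phosphatase subunit gene Ppp2r2b by 0.32 (SE 0.05). The group of dynein and lissencephaly partners of Dcx had 3 of 9 lower and 1 higher (median -0.13). The number of these calls changed when 1 array was left out. Dctn2 changed by -0.30 (SE 0.08), Pafah1b1, the LIS1 gene, by -0.23 (SE 0.06) and Dync1h1 by -0.22 (SE 0.07), and the falls numbered 1, 0, 0, 1 and 1 without PBS replicates 1, 2 and 3 and VPA replicates 2 and 3. Dync1i1 differed by 0.27 (SE 0.08), but its means of 5.77 and 6.04 lay below the background gauge, and its call was lost without PBS replicate 1, PBS replicate 3 or VPA replicate 3.

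Genes of the mitotic spindle had 8 of 15 higher and 0 lower (median 0.24), where 13.6% of all genes were higher and 15.7% lower. Kif20a, Kif11 and Kif18a, which encode mitotic kinesins, rose by 0.48 (SE 0.08), 0.46 (SE 0.09) and 0.42 (SE 0.08), and Hmmr, which encodes a spindle protein, by 0.29 (SE 0.08). Without PBS replicate 2 or 3 the rises numbered 4, and without VPA replicate 3 they numbered 5.

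**Figure D4:**
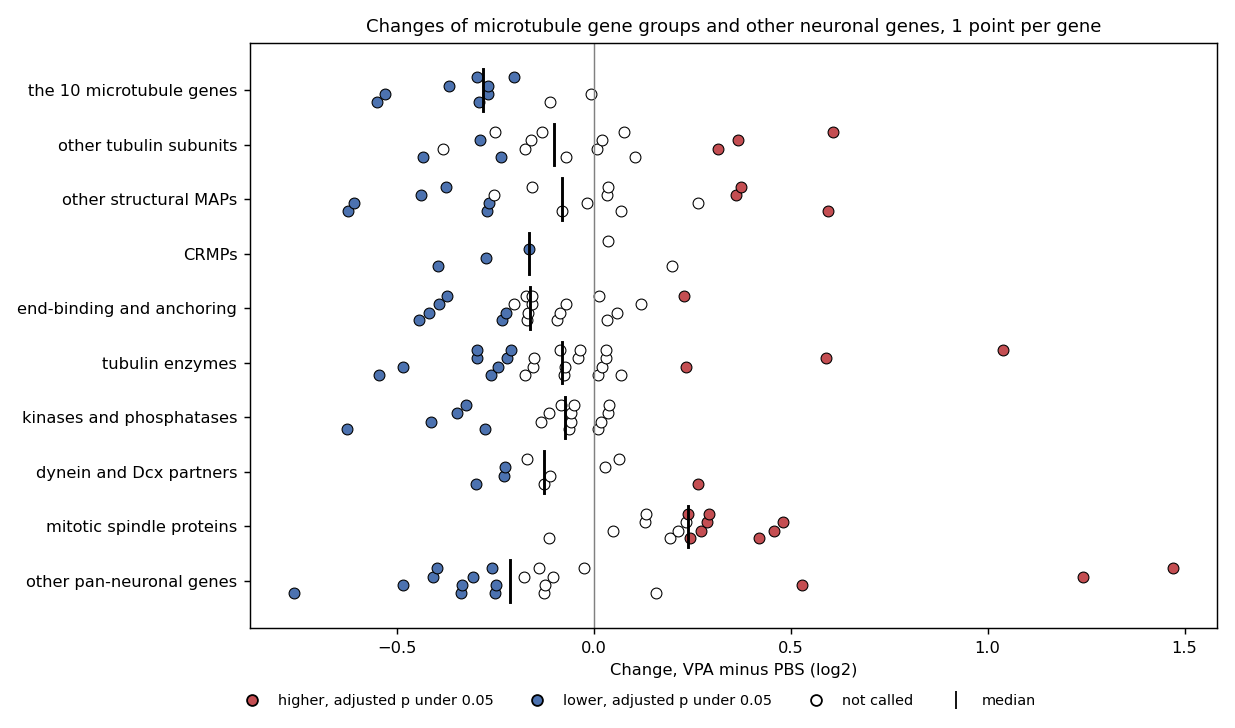
Change of each gene, VPA minus PBS, on the log2 scale (horizontal axis), for the 10 genes, 8 groups of other microtubule genes and 20 other pan-neuronal genes; red is higher, blue lower, white not called, and the vertical bar is the median. The medians are -0.28 for the 10 genes, 0.24 for mitotic spindle genes and -0.21 for other pan-neuronal genes.

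Of 20 other pan-neuronal genes 10 fell and 3 rose, where 15.7% of all genes were lower and 13.6% higher. The median change of the 20 was -0.21, and 6 fell without PBS replicate 2. The rises were those of Thy1, a surface glycoprotein gene also expressed by fibroblasts, at 1.47 (SE 0.12), of the neurofilament gene Nefm at 1.24 (SE 0.06), and of Nefl at 0.53 (SE 0.06), the last named after its values were seen. Whether the 10 microtubule genes fell more than these genes turned on how the 20 were summarized. Against the change of their median level, -0.41, 2 of the 10 (Mapt and Dclk1) lay below. Against the median of their changes from PBS on each array, -0.19, 8 did, and against their mean, -0.05, 9 did. The latter summaries were chosen after seeing the data, and only Mapt and Dclk1 lay below all 3. Map2, at -0.20, lay below the -0.19 but not below the -0.21 given above as the median change of the 20.

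Markers of other cells moved as well, and each count below stands beside 13.6% of all genes higher and 15.7% lower. Of fibroblast and matrix markers 9 of 9 rose (median 1.59), with mean levels over the list of 8.13 to 8.40 on PBS arrays and 9.96 to 10.09 on VPA arrays. Postn and Lum rose by 2.66 (SE 0.13) and 2.29 (SE 0.12). Of muscle markers 9 of 10 rose (median 1.33, 6.33 to 6.39 against 7.52 to 7.98), led by Actc1 at 2.93 (SE 0.18) and Myl1 at 2.31 (SE 0.21). Of endothelial markers 5 of 6 rose (median 0.60, 6.07 to 6.20 against 6.94 to 7.08), with Cdh5 at 1.98 (SE 0.16) and Emcn at 1.30 (SE 0.12). With PBS, Myl1, Cdh5 and Emcn lay below the background gauge. So did the muscle genes Myh3 (5.21) and Des (5.71), which rose as well and were named after their values were seen. When only genes at or above the gauge were tested, 7 muscle markers rose (median 1.85).

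Among neural progenitor markers 4 of 10 rose and 1 fell (median 0.12, 9.73 to 9.79 against 9.89 to 9.98), with Pax6 at 0.54 (SE 0.07) and Hes1 at 0.45 (SE 0.08). The number that fell was 0 without PBS replicate 1, 2 or 3 or VPA replicate 2 or 3, and 2 without VPA replicate 1. Of astrocyte markers 3 of 6 fell (median -0.14, 6.88 to 6.96 against 6.72 to 6.78). The other 3 lay below the gauge, and without them the median was -0.34. Among those that fell were Aldh1l1 at -0.42 (SE 0.07) and Slc1a2 at -0.34 (SE 0.06). Of oligodendrocyte markers 2 of 6 rose and 3 fell (median -0.10, -0.06 without VPA replicate 3, 7.91 to 8.12 against 7.94 to 8.15). There Pdgfra, which mesenchymal cells also express, rose by 1.54 (SE 0.07) and Olig1 fell by 1.07 (SE 0.11). Of pluripotency markers 1 of 6 rose (5.56 to 5.79 against 5.73 to 5.81); the median of 0.10 was 0.0048 without PBS replicate 2, 0.16 without PBS replicate 3 and 0.06 without VPA replicate 2. It was Klf4, at 0.21 (SE 0.05), with means of 6.02 and 6.23 beside the gauge of 6.15; it was not called without PBS replicate 1, 2 or 3. The part of these cell types in the falls of the microtubule genes was not tested.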

How the data were processed

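The authors deposited 1 normalized log2 signal per probe set and array. Base 2 was inferred from the range of the values. Per the submitters' processing notes Partek 6.5 and build mm9 were used, with no role stated; how background and differences between arrays were handled is not given in the sources used here. Of 35556 probe sets, 21789 had a single symbol in GEO's platform annotation. Symbols were updated by Entrez ID (21698 matched), and the brightest probe set per gene gave 19938 genes. VPA was compared with PBS in limma 3.58.1 (R 4.3.3, lmFit, eBayes, no covariates), with Benjamini-Hochberg adjustment over all genes at 0.05. On simulated arrays, 50 of 19938 genes were given each true change of 0.25, 0.5, 1 and 2. This fit called 14% of those at 0.25, 70% at 0.5 and 98% at 1. Of all calls there, 5.4% were false. Few genes changed there, whereas in the data 13.6% were called higher and 15.7% lower. The adjusted p depends on this share, so these percentages need not hold for the data, where recovery was not tested. A gene that was not called may still have changed by a small amount. Precision is limited by the number of arrays. The 8 microtubule and 8 marker lists held 201 genes, 195 of them measured. Members and lists were chosen with earlier results of these data known, and no set test was run. Named were all members, up to 4 called genes with the largest changes per microtubule list, and 2 (or the 1 with the smallest p) per pan-neuronal or marker list. Other normalizations, filters, variance models, weights, probe set rules, thresholds and leaving out each array were tried. Promoter motifs were searched in Python 3.11.15.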

Additional observations from a re-analysis of the deposited data

How the results depend on the processing

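The falls of Tubb3, Mapt, Dcx, Dclk1, Stmn1 and Stmn2 kept their direction and stayed under the threshold in all 20 alternatives. Between 6 and 9 of the 10 genes were lower and 0 higher in each. The Map2 call was lost at a threshold of 0.01 (-0.20) and, without 1 array, its change ran from -0.22 to -0.19; that of Stmn3 ran from -0.30 to -0.23. Map1b was called with array weights (-0.14) and ran from -0.18 to -0.057 without 1 array. Map1a turned to 0.025 after quantile normalization and ran from -0.13 to 0.056 without 1 array. The unequal change of Stmn1 and Stmn2 was -0.00091 after quantile normalization and ran from -0.011 to 0.020 without 1 array, Stmn1 and Stmn3 from -0.078 to 0.042, and Stmn2 and Stmn3 from -0.074 to 0.042. Quantile normalization moved the median of all genes to 0.016.

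With testing limited to genes at or above the 50th percentile of mean level, 1520 were higher, a count over fewer genes. Over all genes, 1631 were higher without moderation of the variances and 4342 with array weights. At a threshold of 0.01, 1579 were higher and 1791 lower. Without 1 array the counts ran from 1778 to 3949 higher and from 2058 to 4224 lower. The share of higher calls grew after quantile normalization, with 3147 higher and 2671 lower. Without 1 array, lower calls ran from 2 to 5 for tubulins, 4 to 10 for end-binding genes, 4 to 10 for tubulin enzymes, 0 to 4 for dynein genes, 6 to 12 for pan-neuronal genes and 0 to 2 for progenitor markers. Higher calls ran from 0 to 1 for end-binding, dynein and pluripotency genes and from 4 to 10 for spindle genes. Dynein genes had 1 lower call after quantile normalization, and the dynein and pluripotency lists had 0 higher calls under filters at the 30th percentile and at the gauge, which left no pluripotency gene. Under these filters the median of the astrocyte list was -0.34. Of 158 list medians recomputed, 151 moved by less than the spread between arrays. The cause of these shifts was not tested, except that by construction a lower threshold removes calls and a filter leaves genes out of the test.

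Deviations of same-numbered arrays correlated at -0.02, -0.01 and 0.02, so no deviation shared by replicate number was seen. With 3 arrays per group, these values cannot show whether same-numbered arrays were prepared together. With the replicate block, 2592 genes were higher and 2818 lower, and 8 of the 10 genes were lower.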
